A study of Mus musculus with 6 samples.

Results

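The 10 genes described here are the 3 TGF-β ligands (Tgfb1, Tgfb2 and Tgfb3), 3 latent TGF-β binding proteins (Ltbp1, Ltbp2 and Ltbp3), the 3 classical receptors (Tgfbr1, Tgfbr2 and Tgfbr3) and Tgfbi, a secreted matrix protein first known as a gene induced by TGF-β. They were taken by symbol from the gene lists of the deposited matrices and are 10 of the 52081 genes that all 6 libraries list. The libraries hold single cells of femoral fracture calluses collected at 14 days post-fracture (dpf) from mice of 12 weeks. Tamoxifen was given to both groups at 75 mg/kg on 5 days from day 5 after the fracture. The 3 control libraries are labelled wt and are described in the study as Piezo1 f/f, that is, with floxed Piezo1 and no Cre. The 3 knockout-labelled libraries carry the genotype label Col2CreERT; Piezo3-/-, and the study describes them as mice with tamoxifen-induced deletion of Piezo1, a mechanosensitive ion channel, in Col2a1-expressing cells. The Cre of this model is driven by Col2a1, a collagen gene of cartilage, so that cells without a Col2a1-expressing origin are not its direct target. The study cites lineage tracing in which chondrocytes could become osteoblasts and osteocytes, and cells derived from chondrocytes may therefore carry the deletion. Lineage was not traced in these libraries. The comparisons ask which callus cells hold the transcripts of the ligands, their binders and their receptors, and whether these levels differed between the genotype labels.

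TGF-β ligands are secreted as latent complexes in which the propeptide stays bound to the ligand, and latent TGF-β binding proteins tether these complexes to the extracellular matrix. Integrins, proteases and thrombospondin release the active ligand, which binds a type II receptor (Tgfbr2) that recruits and phosphorylates the type I receptor (Tgfbr1), while betaglycan (Tgfbr3) presents the ligand, Tgfb2 in particular. Receptor activation phosphorylates SMAD2 and SMAD3. In healing bone the pathway is known for chondrogenesis, for the coupling of bone resorption to bone formation and for the regulation of inflammatory cells.

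After filtering, 41652 of 46944 barcodes were kept, and 35138 of these fell into 20 classes of cells named from marker genes. The clustering did not use the 10 genes or a list of 48 other TGF-β pathway genes. The libraries held 57626530 to 103784364 UMIs (unique molecular identifiers, which count captured transcripts), with medians of 2337 to 9227 UMIs per barcode. Levels are given as CPM, the UMIs of a gene relative to all UMIs of the same class and library on the usual counts-per-million scale, and 6 values in a row are those of control libraries 1 to 3 followed by knockout-labelled libraries 1 to 3. Several features of the libraries bear on the results. Piezo1 in the chondrocyte-like classes was 67.0, 43.2, 49.7, 131, 54.9 and 47.0 CPM, and its log2 difference between knockout label and control was 0.55 (SE 0.38, adjusted p = 1.00). Counts from the 3′ end of a transcript do not test a deletion elsewhere in the gene, so that this level does not check the labels. Knockout-labelled library 3 held Xist at 577 CPM and Y chromosome genes at 0.029, while the other libraries held Xist at 0.11 to 0.18 and Y chromosome genes at 108 to 209. The methods of the study describe male mice, and the transcripts of this library do not match that description. Replicate 1 of both groups stood apart from the rest, with the lowest medians (2337 and 2564.5 UMIs per barcode), the most unnamed cells (38.6% and 39.7%, against 4.95 to 17.2%) and the most stromal-like cells (80.1% and 76.9%, against 21.1 to 60.9%). Knockout-labelled library 2 held only 33 chondrocyte-like cells (501 to 1334 in the others) and 13.4% osteoblast-like cells (0.87 to 6.71% in the others). Of the 3777 chondrocyte-like cells, 796 came from a cluster with few UMIs (median 838.5). Its leading genes include Col10a1 and Ihh, which are markers of the hypertrophic chondrocyte-like class, so that the 2 classes are not cleanly parted. Transcripts of other cells were counted in every library: Col2a1 in neutrophil-like cells, which do not make cartilage, was 3127, 1038, 433, 3198, 13 and 3319 CPM. Whether these came from free RNA or from remaining doublets was not tested. Pairs of libraries shared at most 0.383% of the barcodes of the smaller library. The labels do not tie each library to 1 mouse, so that p-values measure the spread between libraries.

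The starts of the genes for Tgfb1 and Tgfb2, shown because their levels followed different cells, were read from the RefSeq promoter table (GRCm38.p6), which held 8 of the 10 genes. The window from 45 to 16 bases before the start is shown for both, 5′ to 3′ on the coding strand, with the letters TATAAA in capitals.
Tgfb1, chr7:25686957-25686986, plus strand: gtggggccggggcggcttcaaaacccccgc
Tgfb2, chr1:186706005-186706034, minus strand: gtttggggagcacaTATAAAactctgctcc
The window of Tgfb2 holds TATAAA, searched on the coding strand only and beginning 31 bases before the start, and that of Tgfb1 does not. Over 32851 promoters of the table, 2.14% of such windows hold these letters. In the 250 bases before the start, Tgfb1 holds GGGCGG 5 times on both strands together and Tgfb2 holds it 0 times, and 8.47% of all promoters hold it at least 3 times. The GC content of the same 250 bases is 75.2% for Tgfb1 and 53.6% for Tgfb2, against a median of 52.4% over all promoters. These matches are descriptions of the letters, and no factor binding was measured.

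Across the classes, Tgfb2, Tgfb3, Ltbp1 and Ltbp3 were higher in all 9 stromal-like classes and Ltbp2 in 8 of them, whereas Tgfb1, the receptors and Tgfbi each had a distribution of its own. Each class was set against the mean of the other classes over the 19 classes with enough cells, with the library as a block and 14981 genes tested (edgeR's quasi-likelihood test, Benjamini-Hochberg adjustment over all genes, threshold 0.05). Of the 190 pairs of gene and class, 87 were higher, 78 were lower and 25 did not pass the threshold. Of the 10 genes, 8 were higher in tendon-like cells (26.1% of all genes were), 8 in periosteal stromal-like cells (32.3%), 8 in inflammatory fibroblast-like cells (30%), 7 in progenitor fibroblast-like cells (31.3%), 7 in chondrocyte-like cells (34.8%), 7 in inflammatory chondrocyte-like cells (25.7%) and 6 each in hypertrophic chondrocyte-like (31.3%), osteoblast-like (30.3%) and osteoprogenitor-like cells (27.6%). Outside the stroma, 4 were higher in pericyte and smooth muscle-like cells (28.1%), 4 in macrophage-like cells (35.8%), 3 each in endothelial-like (33.6%), monocyte-like (29.4%) and osteoclast-like cells (32.7%), 2 each in neutrophil-like (34.4%), dendritic-like (23.4%) and T and NK-like cells (23.5%), 1 in granulocyte-monocyte progenitor-like cells (25.4%) and 0 in erythroid-like cells (18.3%). Among the lower genes, 8 were lower in granulocyte-monocyte progenitor-like cells (25.6% of all genes) and 8 in T and NK-like cells (24.5%), 7 each in monocyte-like (24.8%), osteoclast-like (27.1%) and endothelial-like cells (21.9%), 6 each in macrophage-like (20.6%) and dendritic-like cells (20.8%) and 5 each in neutrophil-like (31.6%) and erythroid-like cells (25.2%). Fewer were lower in hypertrophic chondrocyte-like cells (4, 21.1%), pericyte and smooth muscle-like cells (3, 19.6%), and inflammatory chondrocyte-like (2, 17.1%), osteoprogenitor-like (2, 17.5%), periosteal stromal-like (2, 23.2%) and inflammatory fibroblast-like cells (2, 18.8%), with 1 each in chondrocyte-like (22.3%), osteoblast-like (21.6%), progenitor fibroblast-like (23.1%) and tendon-like cells (20.4%). In progenitor fibroblast-like cells the median log2 difference of the 10 genes was 2.28, beside 0.01 over all genes. It was 2.05 in tendon-like cells, 1.68 in periosteal stromal-like cells and 1.57 in inflammatory fibroblast-like cells. In granulocyte-monocyte progenitor-like cells the median was -2.81, in T and NK-like cells -2.14 and in monocyte-like cells -2.03. No called pair was called in the opposite direction under other scalings of the libraries.

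**Figure D1:**
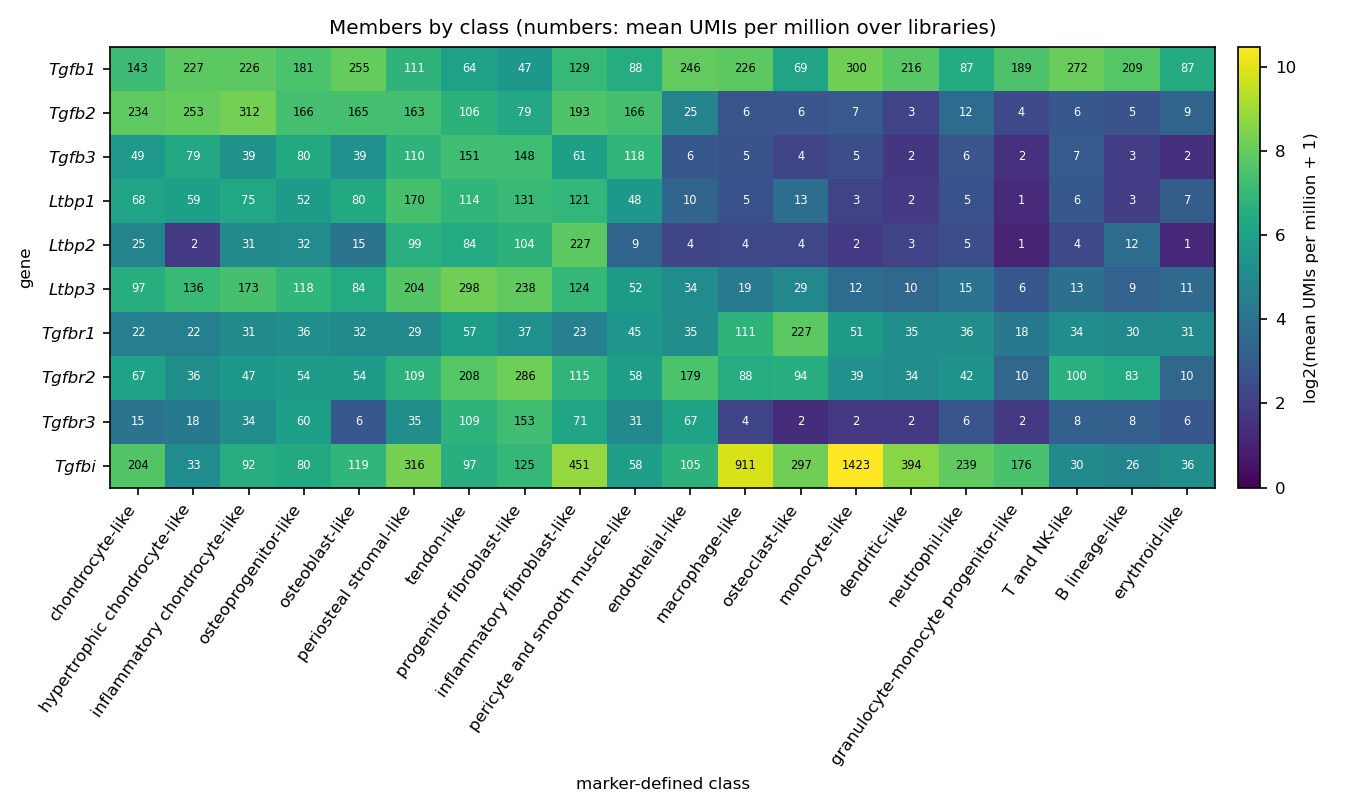
Mean CPM (numbers in the cells; colour: log2 of the mean plus 1) of the 10 genes (rows) in the 20 classes (columns), averaged over the libraries with at least 10 cells of the class. Tgfb2, Tgfb3 and the Ltbp genes are high in the stromal-like classes at the left, except Ltbp2 in hypertrophic chondrocyte-like (2.45) and osteoblast-like cells (15.1). Tgfbr1 stands out in osteoclast-like cells (227) and Tgfbi in monocyte-like cells (1423). Rows are to be read within a gene, since 3′ counts are not comparable between genes.

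Tgfb1 (chr7:25687002-25705077, plus strand), the ligand known for its release from bone matrix and for immune regulation, was found in every class, and its means in the 19 classes with enough cells differed by 6.45-fold at most. In monocyte-like cells it was 360, 310, 237, 289, 410 and 195 CPM (300 ± 78.6, SD, n = 6), which lay 1.2 above the mean of the other classes on the log2 scale (SE 0.11, adjusted p = 8.4e-17). Osteoblast-like cells held 243, 222, 219, 280, 298 and 271 (255 ± 32.2, log2 difference 1.14, SE 0.11), and the spread between their libraries was small. These classes could not be told apart (log2 difference 0.06, SE 0.17, adjusted p = 0.77), and monocyte-like cells were the highest class in 3 of 6 libraries. T and NK-like cells held 593, 207, 150, 224, 270 and 186, of which only the first, from a library with 21 such cells, lay above the monocyte-like values. Monocyte-like cells were higher than T and NK-like cells by 0.59 on the log2 scale (SE 0.18, adjusted p = 0.0048), as were 22.5% of all genes, but this difference was 0.43 (adjusted p = 0.071) without knockout-labelled library 2 and 0.24 (adjusted p = 0.35) with library sizes alone. Progenitor fibroblast-like cells held 55.2, 39.2, 35.3, 43.3, 55.2 and 51.1, all below every value of the monocyte-like and osteoblast-like cells (log2 difference to the other classes -1.86, SE 0.15). Osteoclast-like cells (68.8 ± 16.8, log2 difference -1.18) and tendon-like cells (63.5 ± 6.75, n = 5, -1.15) were also low. In chondrocyte-like cells Tgfb1 was 143 ± 77.6 and in hypertrophic chondrocyte-like cells 227 ± 80.0. The former did not differ from the mean of the other classes (0.09, adjusted p = 0.57), and the latter was higher (0.74, adjusted p = 1.3e-07). After each cell was thinned to 500 UMIs, 16.1% of monocyte-like and 2.21% of progenitor fibroblast-like cells had a Tgfb1 UMI (72.5% and 43.8% before thinning).

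Tgfb2 (chr1:186622792-186705989, minus strand), a ligand known in cartilage and mesenchyme, was higher in all 9 stromal-like classes and in pericyte and smooth muscle-like cells and lower in 8 classes, including endothelial-like cells. Inflammatory chondrocyte-like cells, whose leading genes include Chil1 and Lcn2 but no cartilage collagen, held 223, 227, 364, 573, 246 and 239 CPM (312 ± 138, log2 difference 3.26, SE 0.24). Chondrocyte-like cells held 163, 119, 223, 165, 616 and 119, and hypertrophic chondrocyte-like cells 108, 78.0, 565, 171, 546 and 52.1. The hypertrophic chondrocyte-like cells numbered 123, 24, 18, 60, 24 and 448 in the same order, so that the values 565 and 546 came from 18 and 24 cells. The inflammatory chondrocyte-like cells numbered 30, 25, 278, 29, 50 and 116, so that their highest value, 573, came from 29 cells. The libraries of these 3 classes overlapped, and inflammatory chondrocyte-like cells were not told apart from hypertrophic chondrocyte-like cells (0.42, SE 0.39, adjusted p = 0.51), chondrocyte-like cells (0.24, SE 0.38, adjusted p = 0.75), inflammatory fibroblast-like cells or osteoblast-like cells. They were the highest class in 3 of 6 libraries. Without knockout-labelled library 2 the difference to hypertrophic chondrocyte-like cells was 1.01 (adjusted p = 0.014). Osteoblast-like cells held 244, 123, 184, 311, 11.3 and 115, and osteoprogenitor-like cells 198, 146, 149, 387, 35.8 and 79.2. In both, knockout-labelled library 2 was the lowest library, whereas in chondrocyte-like cells, of which it had 33, it was the highest. The means of the immune-like classes with at least 10 cells in 4 libraries lay between 3.28 and 11.7. In neutrophil-like cells, for example, Tgfb2 was 24.1, 2.37, 13, 21.6, 1.25 and 8.02, and the library with the least Col2a1 in these cells was the lowest. The part of free RNA in these low levels was not tested. Of inflammatory chondrocyte-like cells thinned to 500 UMIs 15.3% had a Tgfb2 UMI (76.7% before thinning; median 16015 UMIs per cell), and of neutrophil-like cells 0.46% (1.89% before thinning; median 2310.5 UMIs).

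Tgfb3 (chr12:86056745-86079041, minus strand), the ligand known for tendon formation and scarless repair, followed the same division, being higher in the same 10 classes and lower in the other 9, but its order within the stroma differed. Tendon-like cells held 158, 125, 141 and 203 in control libraries 1 to 3 and knockout-labelled library 1 and 128 in knockout-labelled library 3 (151 ± 32.0, n = 5, log2 difference 3.12, SE 0.19), and knockout-labelled library 2 had too few such cells. Progenitor fibroblast-like cells held 162, 179, 142, 110, 157 and 140 (148 ± 23.8), which could not be told apart from tendon-like cells (0.04, SE 0.26, adjusted p = 0.99). Tendon-like cells were the highest class in 1 of 6 libraries and progenitor fibroblast-like cells in 4. The library where tendon-like cells led was knockout-labelled library 1, with 17 such cells, and control library 3 had 16. Pericyte and smooth muscle-like cells (118 ± 48.7) and periosteal stromal-like cells (110 ± 17.6) were not told apart from tendon-like cells either. Chondrocyte-like cells held 48.6 ± 7.31 (log2 difference 1.71, SE 0.18) and inflammatory chondrocyte-like cells, with the highest mean of Tgfb2, held 39.5 ± 17.1 (1.24, SE 0.22). The immune-like classes with at least 10 cells in 4 libraries had means of 1.79 to 6.79.

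**Figure D2:**
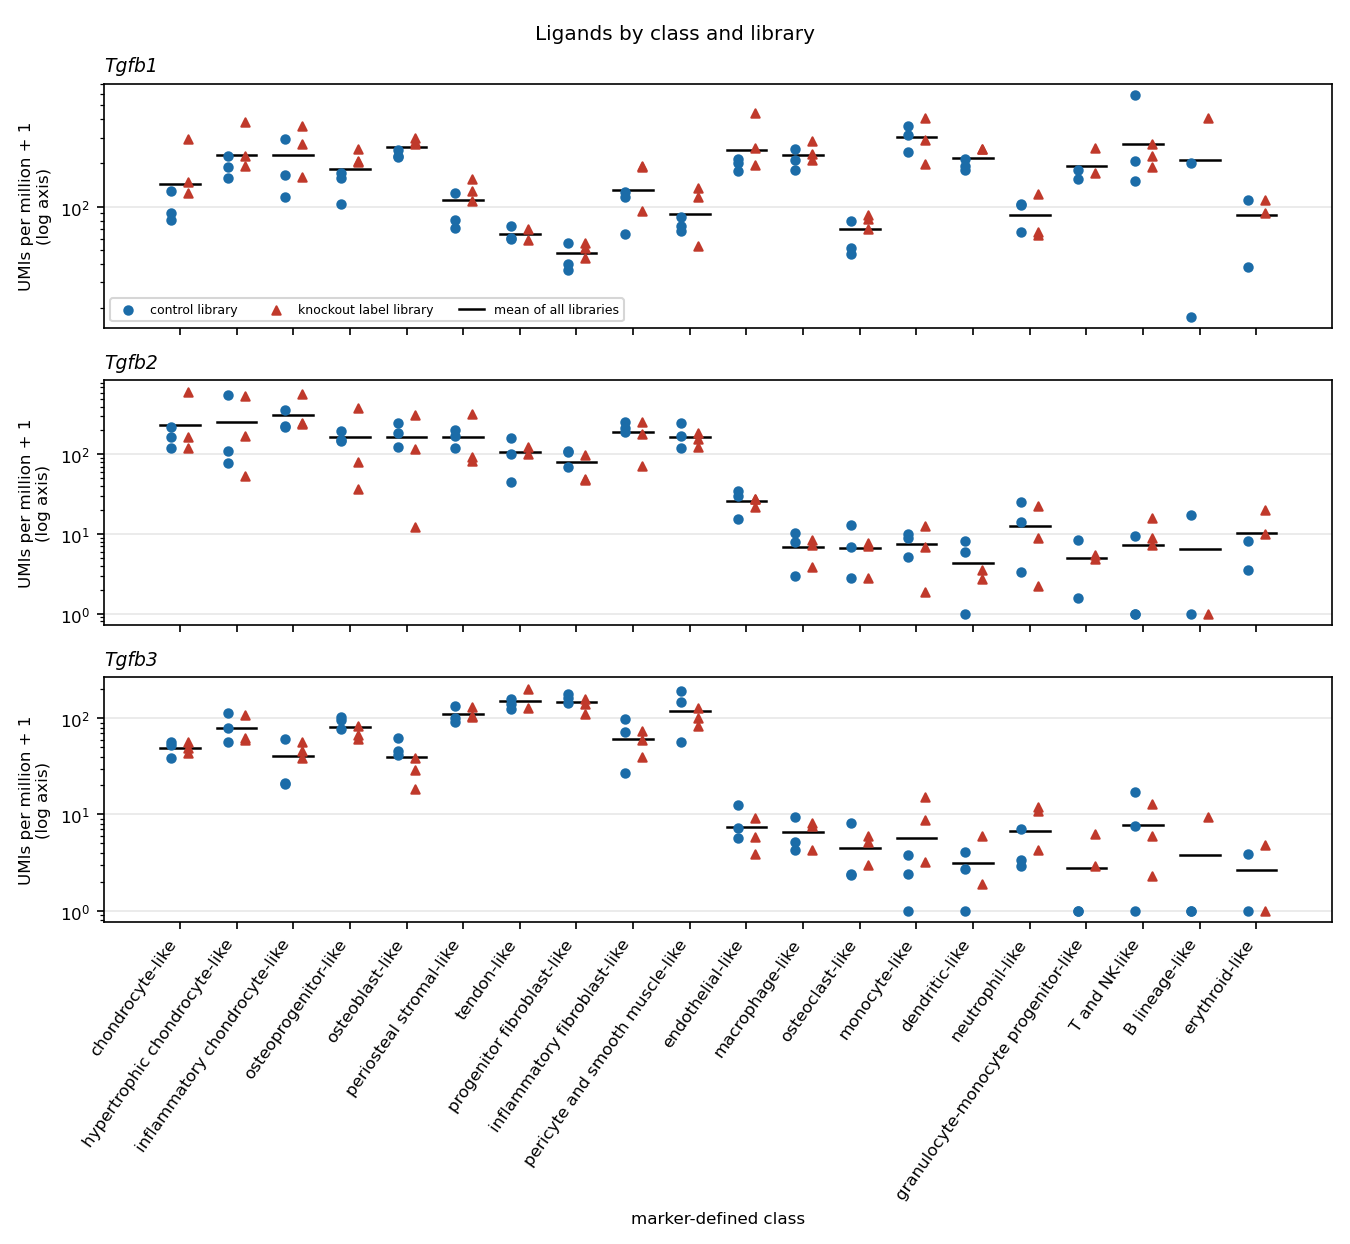
CPM plus 1 (log axis) of the 3 ligands in each class; each point is 1 library (circles, control; triangles, knockout label) and each bar is the mean of the libraries. Tgfb1 spans all classes, whereas Tgfb2 and Tgfb3 fall from the stromal-like and pericyte-like classes (Tgfb2 means 79.4 to 312) to the endothelial-like and immune-like classes (Tgfb2 means 3.28 to 24.9 in the classes with at least 10 cells in 4 libraries).

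A class can supply much of a transcript through its level or through its number of cells. Of the UMIs of Tgfb2, stromal-like cells held 92.8, 70.2, 90.5, 97.3, 82.5 and 90.7%, and immune-like cells held 0.51 to 3.38%. For Tgfb3 the stromal-like share was 90.8, 65.7, 86.1, 96.0, 91.2 and 89.8%. Stromal-like cells were the main source of both in every library, and control library 2, which had the lowest stromal-like share of all UMIs, was the lowest for both. For Tgfb1 the stromal-like share was 77.6, 23.4, 43.0, 74.5, 48.8 and 67.1%, the immune-like share 11.1, 34.2, 37.1, 18.8, 30.8 and 15%, and the remainder was mostly vascular-like. The stromal-like share of all UMIs was 81.8, 34.0, 54.1, 82.2, 48.3 and 67.7%, and the Tgfb1 shares moved with it. By single class, endothelial-like cells held 17.3% of the Tgfb1 UMIs on average, chondrocyte-like cells 14.5% and macrophage-like cells 12.6%, whereas monocyte-like cells, with the highest mean level of the 19 fitted classes, held 3.77%. Between genotype labels 9 shares of the ligands over the stromal-like, vascular-like and immune-like cells were compared with two-sided exact permutation tests over 20 assignments, which cannot give a p below 0.1, so that no share could pass the threshold. The vascular-like share of Tgfb3 was the only one whose groups did not overlap (difference -12.8 percentage points, exact p = 0.1). It was 8.43, 32.2 and 11.7% in the controls and 2.40, 4.34 and 7.31% in the knockout-labelled libraries. The percentage of pericyte and smooth muscle-like cells among kept cells did not overlap either. Control libraries had 3.3, 6.8 and 7.6, and knockout-labelled libraries had 1.3, 0.97 and 2.1. Endothelial-like percentages overlapped. Tgfb3 in the pericyte and smooth muscle-like cells overlapped as well (55.6 to 191 CPM in controls, 82.8 to 128 under the knockout label). Whether cell numbers account for the Tgfb3 share was not tested.

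**Figure D3:**
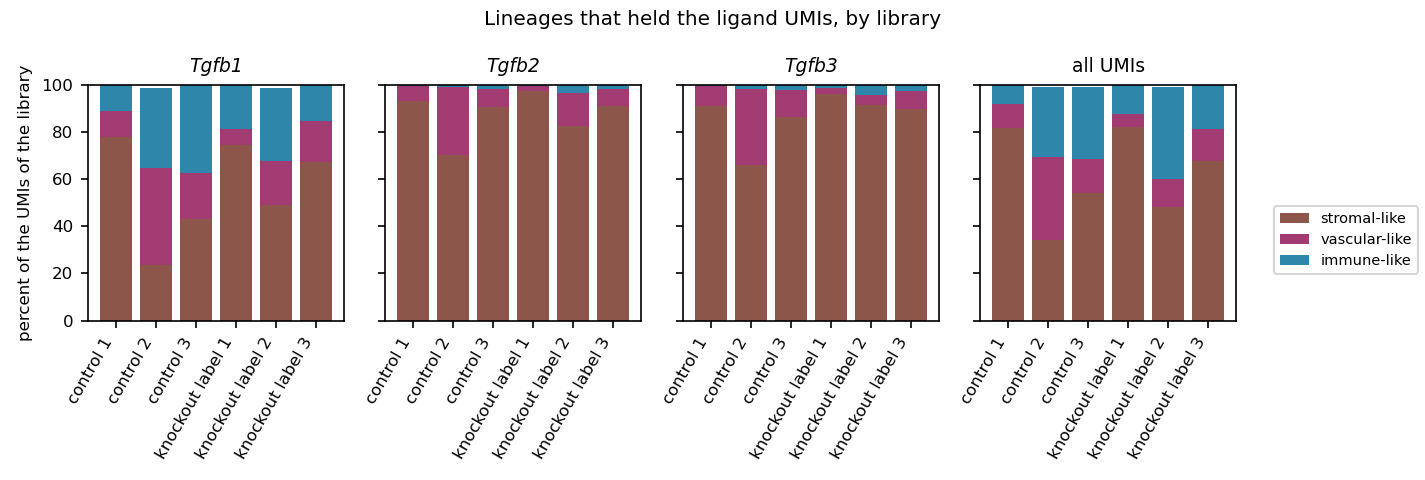
Percent of the UMIs of each ligand, and of all genes, that came from stromal-like, vascular-like and immune-like cells (stacked bars from 0 to 100%) in each library; the small remainder is other cells. Stromal-like cells hold 65.7 to 97.3% of the Tgfb2 and Tgfb3 UMIs in every library, whereas the Tgfb1 bars follow the bars of all UMIs.

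The latent binders were mainly stromal transcripts, and of the 3 only Ltbp2 had a leading class that was told apart from every other class. Ltbp1 (chr17:75005568-75392512, plus strand), which tethers the latent complex to fibronectin and fibrillin, was highest on average in periosteal stromal-like cells with 184, 208, 274, 221, 38.0 and 94.4 CPM (170 ± 87.3, log2 difference 3.11, SE 0.18). Knockout-labelled library 2 was the lowest and knockout-labelled library 3 the next lowest, and these cells were the highest class in 4 of 6 libraries. These cells were not told apart from progenitor fibroblast-like cells (131 ± 49.1, difference 0.35, SE 0.29, adjusted p = 0.53), inflammatory fibroblast-like cells (121 ± 81.3) or tendon-like cells (114 ± 56.0, n = 5). Ltbp1 was also higher in the 3 chondrocyte-like classes, where its means were 58.7 to 75.

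Ltbp2 (chr12:84783212-84876532, minus strand), which unlike its relatives is not known to bind latent TGF-β and associates with elastic fibres, had the sharpest peak of the binders. Inflammatory fibroblast-like cells, whose leading genes include Saa3 and Cxcl5, held 144, 212, 262, 285, 104 and 354 (227 ± 92.8, log2 difference 4.68, SE 0.18, adjusted p = 7.4e-42). They were higher than each of the 18 other classes. The next class, progenitor fibroblast-like cells, held 94.7, 109, 128, 111, 69.2 and 113 and was lower by 1.12 on the log2 scale (SE 0.28, adjusted p = 0.0017), as were 9.58% of all genes. Every library held more in inflammatory fibroblast-like than in progenitor fibroblast-like cells, and in 5 of 6 libraries inflammatory fibroblast-like cells were the highest class. Of these 1146 cells 752 came from control library 3, and the difference to progenitor fibroblast-like cells was 0.98 to 1.18 when single libraries were left out. In hypertrophic chondrocyte-like cells Ltbp2 was 2.83, 0, 3.60, 5.4, 0 and 2.89, below the mean of the other classes (-1.81, SE 0.44, adjusted p = 0.00030). Chondrocyte-like cells, with 24.5, 15, 34.6, 33.0, 18.5 and 26.6, did not overlap with them and were higher than the mean of the other classes (1.59, SE 0.23).

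Ltbp3 (chr19:5740904-5758532, plus strand), a binder known to be needed for skeletal growth, was higher in all 9 stromal-like classes and lower in 9 others, with pericyte and smooth muscle-like cells at the mean (-0.04, adjusted p = 0.91). Tendon-like cells held 290, 360, 215, 311 and 311 (298 ± 52.7, n = 5, knockout-labelled library 2 without value; log2 difference 2.85, SE 0.14). Progenitor fibroblast-like cells held 257, 275, 200, 235, 211 and 249, overlapping with them (difference 0.45, SE 0.21, adjusted p = 0.17). In chondrocyte-like cells Ltbp3 was 97.4 ± 17.1 and in inflammatory chondrocyte-like cells 173 ± 22.0, and both were higher than the mean of the other classes (1.37 and 2.13).

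Tgfbr1 was highest in other cells than Tgfbr2 and Tgfbr3, which were both highest on average in progenitor fibroblast-like cells. Tgfbr1 (chr4:47353222-47414931, plus strand), the type I receptor kinase, stood out in osteoclast-like cells, the resorbing cells of bone, with 253, 262, 223, 267, 177 and 178 CPM (227 ± 40.9, log2 difference 2.65, SE 0.10, adjusted p = 9.5e-42). These cells were the highest class in 6 of 6 libraries and were higher than each of the 18 other classes. Macrophage-like cells came next with 129, 112, 109, 94.1, 111 and 110 (111 ± 11.2), and the ranges of the 2 classes did not overlap (difference 0.99, SE 0.17, adjusted p = 1.06e-06, while 16% of all genes were called higher in osteoclast-like cells). The 2 classes are not cleanly parted. A cluster of 565 macrophage-like cells, with a median of 21410 UMIs, has the osteoclast markers Atp6v0d2, Ctsk and Acp5 among its leading genes. Its part in the macrophage-like level of Tgfbr1 was not tested. Monocyte-like cells (50.8 ± 12.6) and tendon-like cells (57.3 ± 22.0, n = 5) were higher than the mean of the other classes as well, by 0.56 and 0.73. Neutrophil-like cells were higher by 0.70 (adjusted p = 1.1e-05), but with library sizes alone this was -0.07 (adjusted p = 0.77), a scaling that moved the median of all genes in that class by -0.79. In chondrocyte-like cells, which the Cre targets, Tgfbr1 was 21.7 ± 4.28 (log2 difference -0.64, SE 0.15), and in inflammatory fibroblast-like cells 22.7 ± 4.91 (-0.92, SE 0.16). Osteoclast-like cells held 22.1% and macrophage-like cells 19.8% of the Tgfbr1 UMIs on average over libraries. After thinning, 10.1% of osteoclast-like and 1.03% of chondrocyte-like cells had a Tgfbr1 UMI (75.2% and 27.8% before thinning).

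Tgfbr2 (chr9:116084293-116175360, minus strand), the ligand-binding type II receptor, was highest on average in progenitor fibroblast-like cells, whose leading genes include Pi16, with 357, 300, 242, 267, 306 and 241 (286 ± 44.7, log2 difference 2.20, SE 0.11). Tendon-like cells held 127, 261, 171, 287 and 191 (n = 5, knockout-labelled library 2 without value) and overlapped with them (difference 0.44, SE 0.20, adjusted p = 0.17). Endothelial-like cells held 218, 221, 185, 183, 155 and 111 (179 ± 41.3, log2 difference 1.35, SE 0.12), all below the progenitor fibroblast-like values, and were lower than progenitor fibroblast-like cells by 0.80 (SE 0.18, adjusted p = 8.2e-05; 25.7% of all genes were called lower). In hypertrophic chondrocyte-like cells (36.3 ± 12.6) and inflammatory chondrocyte-like cells (46.8 ± 19.3) Tgfbr2 was below the mean of the other classes (-0.67 and -0.45), and in chondrocyte-like cells (66.6 ± 32.1) slightly above it (0.31, adjusted p = 0.040). It was lowest in granulocyte-monocyte progenitor-like cells (10.1 ± 0.81, n = 4, log2 difference -2.67) and erythroid-like cells (9.97 ± 13.8, n = 4, -2.70).

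Tgfbr3 (chr5:107106570-107289629, minus strand), betaglycan, was also led by progenitor fibroblast-like cells, with 185, 144, 75, 316, 109 and 89.5 (153 ± 89.2, log2 difference 3.40, SE 0.16). Tendon-like cells held 102, 165, 7.42, 171 and 98.1 (n = 5, knockout-labelled library 2 without value), in which control library 3, with 16 such cells, was far below the rest. The 2 classes were not told apart (0.33, SE 0.27, adjusted p = 0.55). Inflammatory fibroblast-like cells (70.9 ± 52.2, 2.28), endothelial-like cells (67.1 ± 35.3, 2.09) and osteoprogenitor-like cells (59.6 ± 36.6, 1.86) followed. Osteoblast-like cells, with 7.86, 9.95, 2.02, 14.8, 1.03 and 3.16, were below the mean of the other classes (-1.34, SE 0.29), and each of their libraries lay below the same library of osteoprogenitor-like cells (63.6, 118, 49.2, 80.8, 24.5 and 21.4). Osteoclast-like cells, at the top for Tgfbr1, were lowest for Tgfbr3 with 1.61 ± 0.455 (log2 difference -2.97, SE 0.35). After thinning, 6.41% of progenitor fibroblast-like and 0.063% of osteoclast-like cells had a Tgfbr3 UMI (67.0% and 2.40% before thinning).

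**Figure D4:**
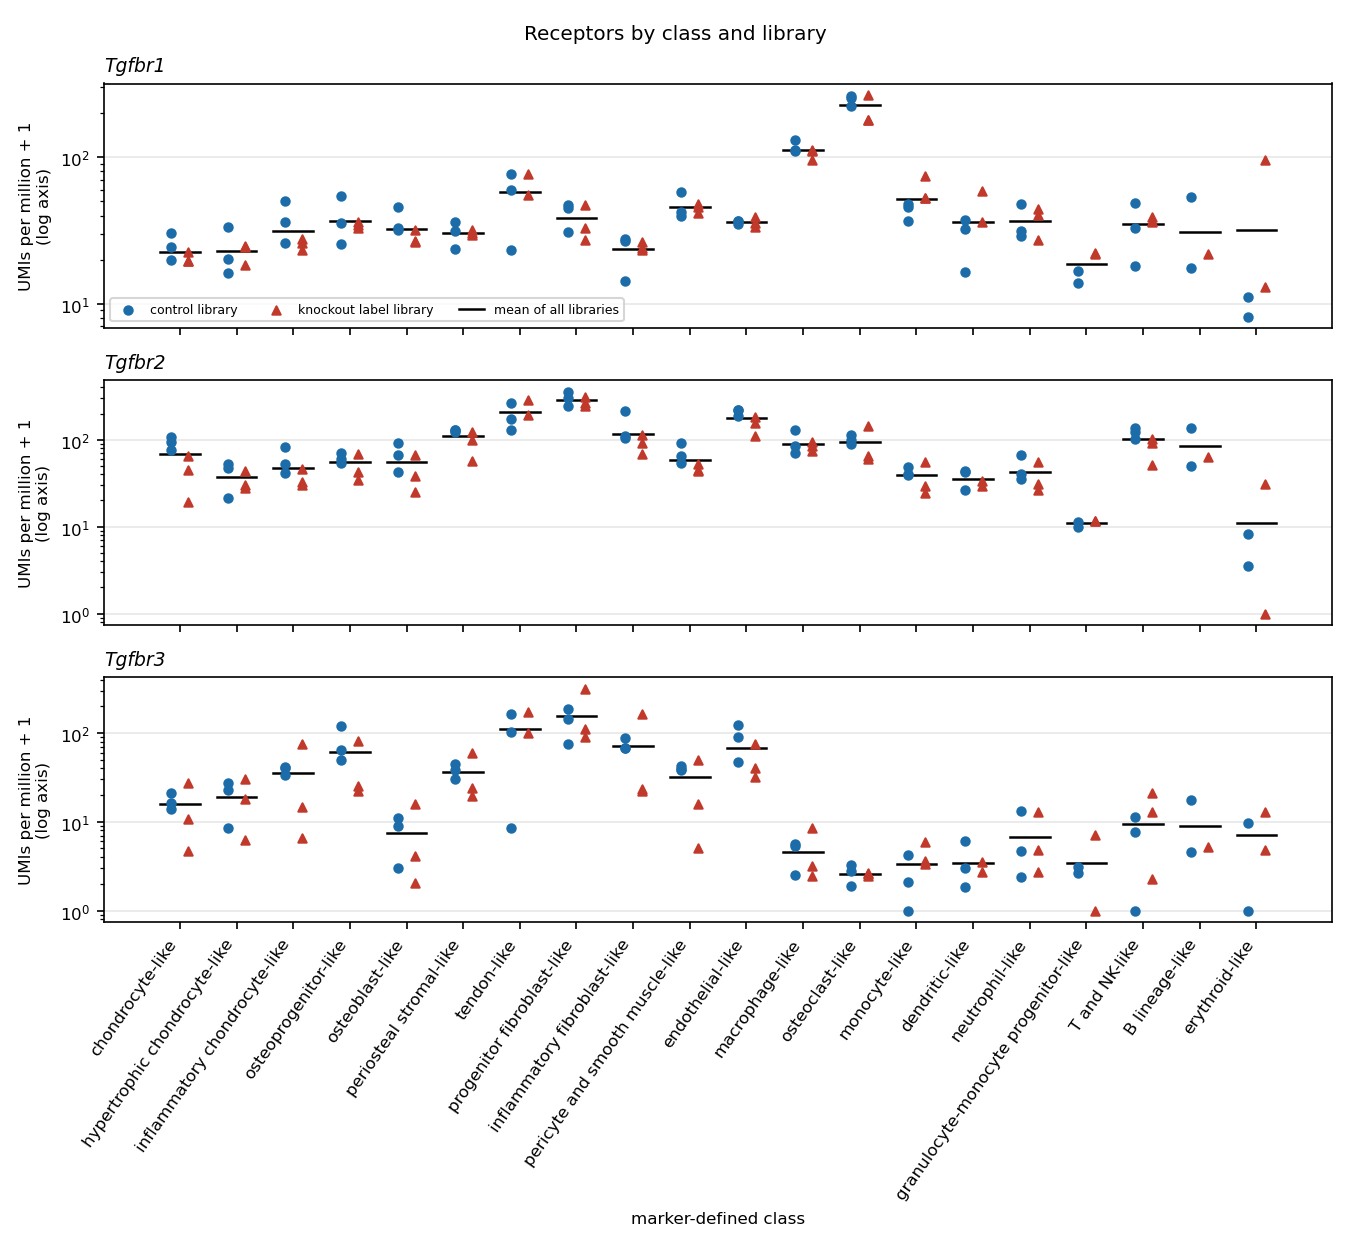
CPM plus 1 (log axis) of the 3 receptors in each class; each point is 1 library (circles, control; triangles, knockout label) and each bar is the mean of the libraries. Tgfbr1 is highest in osteoclast-like cells (177 to 267 over libraries), Tgfbr2 in progenitor fibroblast-like, tendon-like and endothelial-like cells, and Tgfbr3 in progenitor fibroblast-like and tendon-like cells with a wide spread between libraries.

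Tgfbi (chr13:56609523-56639562, plus strand), the matrix protein that TGF-β is known to induce, was led by myeloid-like cells. Monocyte-like cells held 1016, 1154, 1342, 3271, 692 and 1063 CPM (1423 ± 930, log2 difference 3.35, SE 0.19) and were the highest class in 6 of 6 libraries. Macrophage-like cells held 479, 931, 1085, 2058, 456 and 457 (911 ± 624, log2 difference 2.56, SE 0.20). Each library held less in macrophage-like than in monocyte-like cells, and knockout-labelled library 1 was the highest in both, but the difference between the classes did not pass the threshold (0.75, SE 0.35, adjusted p = 0.087). Macrophage-like cells (4257 cells) held 27.4% of the Tgfbi UMIs on average and monocyte-like cells (1457 cells) 8.57%. Among stromal-like cells, inflammatory fibroblast-like cells held 449, 583, 794, 501, 228 and 151 (log2 difference 1.5, SE 0.22) and periosteal stromal-like cells 326, 370, 432, 451, 104 and 214 (0.98, SE 0.23). Hypertrophic chondrocyte-like cells, with 33.0 ± 15.1, were below the mean of the other classes (-2.35, SE 0.36), and chondrocyte-like cells, with 204 ± 131, were above it (0.58, SE 0.24, adjusted p = 0.037). After thinning, 39.3% of monocyte-like and 1.08% of T and NK-like cells had a Tgfbi UMI (91.7% and 6.01% before thinning).

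The order of the classes was compared between genes as a description over the 20 classes, which share libraries and depth. Ltbp1 and Ltbp3 were most alike (Pearson r of mean log2 levels 0.97), followed by Tgfb3 with Ltbp1 (0.95), Tgfb3 with Ltbp3 (0.95), Tgfb2 with Ltbp1 (0.94) and Tgfb2 with Tgfb3 (0.92). Tgfb1 was unlike all of them (r = -0.13 with Tgfb2, -0.30 with Ltbp1 and -0.42 with Ltbp2). Tgfbr1 and Tgfbr2 had r = 0.41 and Tgfbr2 and Tgfbr3 r = 0.61. Of 14980 other genes, those whose class pattern was most like each gene were Triqk and Gpx8 for Tgfb2 (both r = 0.97), Cacna2d1 and Hoxc10 for Tgfb3 (both 0.98), Ak1 and Gm38211 for Ltbp1 (both 0.98), Tmem30b and Hhipl1 for Ltbp2 (0.96 both), Ltbp1 and Ghr for Ltbp3 (both 0.97), Klc4 and Dtx2 for Tgfbr1 (0.88 and 0.86), Tnrc6a and Ski for Tgfbr2 (0.92 and 0.88), Gm43422 and Map1b for Tgfbr3 (0.96 and 0.94) and Rab32 and Hacd4 for Tgfbi (0.87 and 0.86). For Tgfb1 the likest were Gm42633 and Gm40309, with r of only 0.68 and 0.67.

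The other genes of the pathway were read from a list of 48, of which 47 were tested and Itgb6 had too few UMIs. Among 8 matrix anchors and binders (such as fibrillins, fibronectin and small proteoglycans), all 8 were higher in chondrocyte-like, inflammatory fibroblast-like, periosteal stromal-like, progenitor fibroblast-like and tendon-like cells, where 26.1 to 34.8% of all genes were. All 8 were lower in macrophage-like, osteoclast-like, neutrophil-like, dendritic-like and T and NK-like cells, where 20.6 to 31.6% of all genes were. Fbn1, the fibrillin to which Ltbp proteins bind, was 4.85 higher on the log2 scale in progenitor fibroblast-like cells (SE 0.14) and 4.05 higher in inflammatory fibroblast-like cells (SE 0.15). Fbn2 was 4.89 higher in periosteal stromal-like cells (SE 0.16), and Fmod, a proteoglycan of tendon, 4.57 higher in tendon-like cells (SE 0.18). Fn1, fibronectin, was 3.32 higher in inflammatory chondrocyte-like cells (SE 0.20).

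Genes that act on the latent ligand differed between the leading classes. In monocyte-like cells, which had the highest mean of Tgfb1 among the 19 fitted classes without being told apart from osteoblast-like cells, Nrros, which anchors latent TGF-β1 on myeloid cells, was 3.98 higher than in the mean of the other classes (SE 0.13). In osteoclast-like cells, at the top for Tgfbr1, Itgav, the integrin chain that binds latent TGF-β, was 2.65 higher (SE 0.11). In inflammatory fibroblast-like cells Itgb8, another such chain, was 2.85 higher (SE 0.34), and in tendon-like, periosteal stromal-like and progenitor fibroblast-like cells the matrix protease Mmp2 was 3.36, 3.09 and 3.00 higher. Of the 11 tested genes of this role, 9 were higher in inflammatory fibroblast-like cells (30% of all genes were) and 8 in progenitor fibroblast-like cells (31.3%). Osteoclast-like cells had 5 of them higher (32.7% of all genes) and 5 lower (27.1%), and monocyte-like cells had 3 higher (29.4%) and 4 lower (24.8%).

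Known transcriptional targets of the pathway, 12 in the list, were higher for 11 in chondrocyte-like cells and for 10 in inflammatory chondrocyte-like cells, with none lower in either, against 34.8% and 25.7% of all genes higher. Ccn2, a matricellular growth factor, was 2.70 higher in inflammatory chondrocyte-like cells (SE 0.21), and Postn, periostin, 3.64 higher in periosteal stromal-like cells (SE 0.18) and 3.50 higher in inflammatory fibroblast-like cells. Nox4 was 4.09 higher in progenitor fibroblast-like cells (SE 0.19) and 3.66 higher in tendon-like cells. Of the 12 targets, 8 were higher and 2 lower in progenitor fibroblast-like cells (31.3% and 23.1% of all genes). The same counts were found in periosteal stromal-like (32.3% and 23.2%) and inflammatory fibroblast-like cells (30% and 18.8%). In tendon-like cells 6 were higher (26.1%) and 3 lower (20.4%). In osteoclast-like cells 9 of the 12 targets were lower (27.1% of all genes were) and only Bhlhe40 was higher (1.32, SE 0.13). In monocyte-like cells 9 were lower (24.8% of all genes) and 3 higher (29.4%), among them Junb (1.25, SE 0.15). Of the SMADs and their regulators, Pmepa1, an inhibitor that TGF-β induces, was higher in inflammatory fibroblast-like (2.27), tendon-like (1.93), periosteal stromal-like (1.88), progenitor fibroblast-like (1.65) and inflammatory chondrocyte-like cells (1.42). Tgif1, a corepressor of SMAD2, led this role in monocyte-like cells (2.00) and Smurf1, a ubiquitin ligase for SMADs and receptors, in osteoclast-like cells (1.32). Of the 11 tested genes of this role, 4 were higher (29.4% of all genes) and 1 lower (24.8%) in monocyte-like cells. Osteoclast-like cells had 4 higher (32.7%) and 6 lower (27.1%). Of the other receptors, Bambi, a decoy receptor, was 1.86 higher in inflammatory chondrocyte-like cells, and the type I receptor Acvr1 was 1.87 higher in periosteal stromal-like cells.

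Between the genotype labels, none of the 10 genes passed the threshold in any class. Each class was fitted on its own over its libraries with at least 10 cells, and 158 pairs of gene and class were tested in 19 classes. The count was 0 called (lowest adjusted p = 0.57) and 11 with an unadjusted p under 0.05, which is 6.96% of the pairs beside 3.41% of all genes over the same classes, and DESeq2 called 0 pairs as well. Over all genes, percent called was 0 in 18 of the 19 classes and 0.0364 in granulocyte-monocyte progenitor-like cells. In the 3 chondrocyte-like classes summed, 0 of 14695 genes were called (0%, 239 at an unadjusted p under 0.05, and 2 by DESeq2). The Cre is driven by Col2a1, while the inflammatory chondrocyte-like class in this sum was named from other genes, such as Chil1 and Lcn2. Stromal-like clusters of 3562 and 830 cells that were led by Col10a1 but stayed unnamed were not part of this sum. In all stromal-like cells summed, 0 of 18302 were called (0%, 299 at an unadjusted p under 0.05, 0 by DESeq2). In simulated libraries of the chondrocyte-like classes, genes changed by 1 on the log2 scale were found in 0% of cases, those changed by 2 in 47.0% and those changed by 3 in 85.2%, at this number of libraries. The same simulation, with 14268 genes, also called 11 unchanged genes, beside 64, 66 and 61 genes changed by 1, 2 and 3. The changed genes were drawn at random from all tested genes, so that these rates are not those of the 10 genes.

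Tgfb1 in the chondrocyte-like classes was 146, 95.0, 99.5, 136, 342 and 172 CPM, with a log2 difference of 0.95 (SE 0.38, unadjusted p = 0.035, adjusted p = 1.00). The groups overlapped, knockout-labelled library 2 was the highest, and the difference was 0.52 without that library and 0.85 to 1.22 without any other single library, and it was larger without replicate 1 of both groups (adjusted p = 0.59). In all stromal-like cells it was 138, 91.3, 91.3, 115, 264 and 176 (0.93, SE 0.38). In osteoprogenitor-like cells the controls held 171, 104 and 155 and the knockout-labelled libraries 205, 248 and 203, and in osteoblast-like cells 243, 222 and 219 against 280, 298 and 271. In these 2 of 15 single classes the groups did not overlap, with all knockout-labelled libraries higher, as for 3.06% of all genes in osteoprogenitor-like and 3.34% in osteoblast-like cells, and neither difference passed the threshold (0.72, SE 0.27, adjusted p = 0.87; 0.39, SE 0.26, adjusted p = 1.00). The fitted difference was positive in 17 of 19 single classes, which come from the same 6 libraries.

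Tgfbr2 went the other way. In chondrocyte-like cells it was 75.9, 106 and 92.1 in the controls and 64.4, 18.5 and 43.3 in the knockout-labelled libraries, and in endothelial-like cells 218, 221 and 185 against 183, 155 and 111. The groups did not overlap in either class, nor in periosteal stromal-like, pericyte and smooth muscle-like or T and NK-like cells. That is 5 of the 15 single classes with 3 libraries per group, while 4.28% of all genes tested in such classes had all knockout-labelled libraries below all controls (5.15% in chondrocyte-like and 6.52% in endothelial-like cells). In the chondrocyte-like classes summed, the log2 difference was -0.93 (SE 0.34, unadjusted p = 0.024, adjusted p = 1.00), -1.21 to -0.68 when single libraries were left out and -1.31 (adjusted p = 0.59) without replicate 1 of both groups. In endothelial-like cells it was -0.44 (SE 0.21, unadjusted p = 0.066). The margins were small in places: in periosteal stromal-like cells the lowest control was 123 and the highest knockout-labelled library 121. These values were 185 and 183 in endothelial-like cells and 102 and 101 in T and NK-like cells. Control library 1 had 21 T and NK-like cells and knockout-labelled library 1 had 28. Over the 18 single classes tested, which come from the same 6 libraries, the difference was negative in 16. Such agreement was not particular to Tgfbr2: the difference of Ltbp1 was negative in 12 of 14 classes and that of Ltbp2 positive in 11 of 13. Knockout-labelled library 2, the lowest for Tgfbr2 in the chondrocyte-like classes, had 107 cells in them and Col2a1 at 5329 CPM (16661 to 61958 in the other libraries), and the part of these features in the result was not tested.

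Tgfbi in the chondrocyte-like classes was 162, 210 and 289 in the controls and 161, 39.6 and 99.4 in the knockout-labelled libraries (log2 difference -1.12, SE 0.49, unadjusted p = 0.049, adjusted p = 1.00), where the groups were parted by less than 1 CPM. This difference was -0.75 without knockout-labelled library 2 and -1.75 (adjusted p = 0.59) without replicate 1 of both groups. In pericyte and smooth muscle-like cells Tgfbi was 26.8, 39.1, 40.7, 26.4, 122 and 91.2, with a difference of the opposite sign (1.21, SE 0.48, unadjusted p = 0.032, adjusted p = 0.95). Over the 19 single classes the difference was positive in 8 and negative in 11, and in monocyte-like cells, where the mean was highest, the groups overlapped. Ltbp1 in the chondrocyte-like classes was 46.1, 56.7, 127, 48.7, 54.9 and 36.2 (-0.74, SE 0.41), with a difference of -0.13 without control library 3, and in inflammatory fibroblast-like cells 270, 111, 125, 126, 44.6 and 50.6 (-1.14, SE 0.46, unadjusted p = 0.034). Ltbp2 in periosteal stromal-like cells was 83.8, 63.8 and 82.9 in the controls and 131, 120 and 113 in the knockout-labelled libraries, without overlap (0.66, SE 0.22, unadjusted p = 0.014, adjusted p = 1.00). Tgfb2 in the chondrocyte-like classes was 154, 122, 294, 194, 437 and 111 (0.35, SE 0.52), and Tgfb3 67.3, 38.0, 38.8, 64.1, 45.7 and 46.9 (0.15, SE 0.27). Tgfbr1 there was 23.4, 18.9, 32.0, 21.0, 21.3 and 20.3 (-0.23, SE 0.26), Tgfbr3 18.1, 20.6, 24.3, 30.2, 4.88 and 11.7 (-0.35, SE 0.50) and Ltbp3 93.9, 111, 149, 101, 171 and 96.0 (0.05, SE 0.32). In this sum the groups overlapped for each of these 5 genes. In single classes they did not overlap for Tgfb3 in osteoblast-like cells (40.4 to 61.9 CPM in controls, 17.6 to 38.1 under the knockout label). Nor did they for Tgfbr1, which was lower under the knockout label in osteoblast-like cells (25.2 to 30.9, controls 31.0 to 44.6). In monocyte-like cells Tgfbr1 was higher (51.7 to 73.6, controls 35.6 to 47.0). None of these differences passed the threshold. Over all 10 genes, the groups did not overlap in 12 of 137 pairs with 3 libraries each, 4 higher (2.92%) and 8 lower (5.84%) in the knockout-labelled libraries, beside 3.09% and 4.28% of all genes, and 5 of the 8 lower pairs were those of Tgfbr2. Of the other pathway genes, 0 of 768 pairs of gene and class were called. An unadjusted p under 0.05 was found for 34 of the 768, beside 3.41% of all genes over the same classes.

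**Figure D5:**
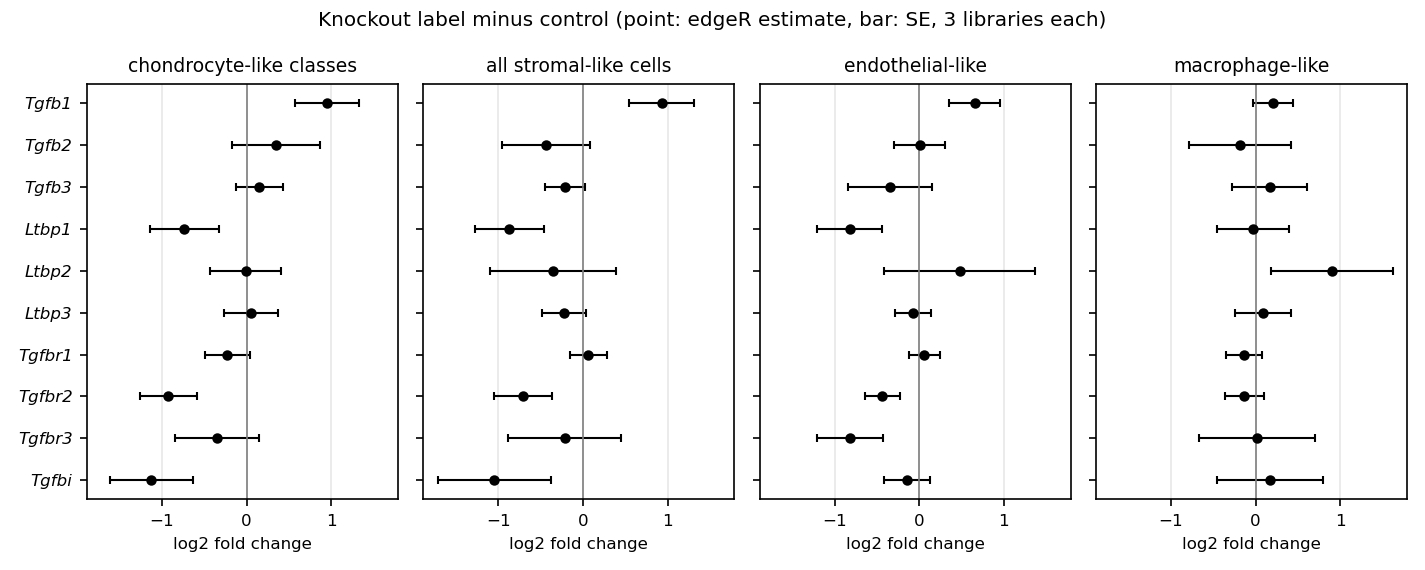
Log2 difference between knockout label and control (point) with its SE (bar) from edgeR for the 10 genes in the 3 chondrocyte-like classes summed, all stromal-like cells, endothelial-like and macrophage-like cells, 3 libraries per group. In the chondrocyte-like classes Tgfb1 lies above 0 and Tgfbr2 and Tgfbi lie below 0 by more than 2 SE. Points beyond 2 SE are not particular to these classes. In both all stromal-like and endothelial-like cells Tgfb1 lies above 0 and Ltbp1 and Tgfbr2 below 0 by more than 2 SE, as does Tgfbr3 in endothelial-like cells. None of the points passed the adjusted threshold of 0.05.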

How the data were processed

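Droplet single-cell libraries of fracture callus cells (3 control, 3 knockout-labelled) were analysed. The deposited matrices hold counts of UMIs per gene and barcode, which the authors made with Cell Ranger 6.1.1 (replicate 1 of each group) or 6.1.2 (replicates 2 and 3) on GRCm38, per the submitters' processing notes. The matrices of replicate 3 list other genes than the rest, so that the 52081 genes common to all were used, which held 97.8 to 99.7% of the UMIs. Barcodes with at least 500 UMIs, 200 genes and at most 20% mitochondrial UMIs were kept, and 3046 likely doublets (Scrublet scores in scanpy 1.11.5, 0.8% per 1000 cells) were removed. Cells were integrated with Seurat 5.3.0 (2000 variable genes, 30 components) and clustered with leidenalg 0.10.2 (20 neighbours, resolution 0.8). A cluster was named from at least 3 markers, and 6514 cells stayed unnamed. Shares of lineages and the sum over all stromal-like cells include unnamed clusters of the lineage.

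UMIs were summed per library and class (at least 10 cells) and tested with edgeR 4.0.16 (quasi-likelihood, TMM scaling, Benjamini-Hochberg adjustment over all genes tested). DESeq2 1.42.0 was an alternative, and shares were compared with exact permutation tests (scipy 1.17.1). B lineage-like cells had enough cells in 3 libraries only and entered no fit. The scripts were tested on simulated data. All 10 genes are named. Other pathway genes are named as the one with the largest positive difference for each role in a leading class, and similar genes as the 2 with the highest correlation over classes. The members and lists were chosen with earlier results of these data known. Alternatives covered scaling, the filter on low counts, filters on cells, doublets, integration, resolution, a replicate block and leaving out libraries. Intervals were not computed for levels, which also carry amplification and may carry free RNA.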

Additional observations from a re-analysis of the deposited data

How the results depend on the processing

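Of the main results under the alternatives, 344 values kept their direction and their side of the threshold, 18 counts moved by over 1.5 times, 8 values changed sign, 6 newly passed the threshold and 3 no longer did, and of the differences of single genes between genotype labels 315 did and 25 changed sign. The number of genes called between labels over single classes was 3. It was 1319 with no filter on low counts, 71 with DESeq2, 413 with a stricter filter on cells (410 of them in erythroid-like cells), 11 with more doublets removed, 11 without integration, 6 at resolution 0.4, 57 without replicate 1 of both groups, 0 without replicate 3 of both groups, and 6 to 80 when single libraries were left out (80 without knockout-labelled library 2, 75 without knockout-labelled library 3). In the chondrocyte-like classes it was 37 with no filter and 2 with DESeq2. Of the 10 genes, 1 was called under the stricter filter on cells (Tgfbr1 in erythroid-like cells, log2 difference 2.72, adjusted p = 0.0039, 5061 genes tested by edgeR). With the replicate number as a block 94 genes were called, 86 of them in tendon-like cells; correlations of deviations between same-numbered libraries (1, 2 and 3) were 0.264, -0.0739 and -0.176 in all stromal-like cells, 0.267, -0.182 and -0.093 in the chondrocyte-like classes, 0.295, -0.0592 and 0.0717 in endothelial-like and 0.0705, -0.178 and 0.0595 in macrophage-like cells. Replicate 1 of both groups deviated together, and the other same-numbered libraries did not in the stromal-like sums. Some differently numbered libraries also deviated together there. Control library 2 with knockout-labelled library 3 gave 0.301 in all stromal-like cells and 0.2896 in the chondrocyte-like classes. Control library 3 with knockout-labelled library 2 gave 0.232 and 0.2499. The remaining differently numbered pairs were negative in these sums. The numbers were not taken as pairs, and what the positive pairs share was not tested.

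Monocyte-like against T and NK-like cells for Tgfb1 gave 0.38 with DESeq2 size factors and 0.24 with library sizes alone (0.43 to 0.82 leaving out single libraries). Inflammatory against hypertrophic chondrocyte-like cells for Tgfb2 gave 0.18 to 1.01 leaving out single libraries. Tendon-like against progenitor fibroblast-like cells for Tgfb3 gave -0.076 with library sizes alone, -0.30 without replicate 1 of both groups, -0.017 with more doublets removed and -0.19 to 0.13 leaving out single libraries, and for Ltbp3 0.85 without integration and 0.73 at resolution 0.4. Periosteal stromal-like against progenitor fibroblast-like cells for Ltbp1 gave -0.12 without integration. Progenitor fibroblast-like against tendon-like cells for Tgfbr2 gave 0.64 at resolution 0.4 and 0.59 at resolution 1.2, and monocyte-like against macrophage-like cells for Tgfbi 0.69 with no filter (adjusted p = 0.00048). At resolution 0.4 the Ltbp1 and Tgfb2 comparisons gave no value, a class being absent. The difference in the Tgfb2 share was -1.48 to 9.81 percentage points (stromal-like), -10.2 to 0.76 (vascular-like) and -0.067 to 1.32 (immune-like) leaving out single libraries.

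Between labels in all stromal-like cells, without replicate 3 of both groups, the log2 difference was 0.57 for Ltbp2, -0.060 for Tgfbr1 and 0.10 for Tgfbr3, and leaving out single libraries gave -1.24 to 0.45, -0.055 to 0.20 and -1.54 to 0.20. In the chondrocyte-like classes Tgfb2 was -0.41 with more doublets removed (-0.31 to 0.84 leaving out single libraries). Ltbp2 was 0.0017 with DESeq2 size factors, 0.021 with no filter, 0.23 without replicate 3 of both groups, 0.022 with the stricter filter, 0.19 with more doublets removed and 0.069 at resolution 1.2 (-0.29 to 0.32 leaving out single libraries). Ltbp3 was -0.022 without integration, -0.10 at resolution 0.4 and -0.031 at resolution 1.2 (-0.22 to 0.28 leaving out single libraries), and Tgfbr1 was -0.37 to 0.027 leaving out single libraries. The cause of these changes was not tested.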

Other observations

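Clusters that could not be named held the 10 genes as well. In the largest, 3562 stromal-like cells with few UMIs, Tgfb1 was 150 CPM, Tgfb2 89.9, Tgfb3 72.2 and Tgfbr2 76.2 over all its cells. Its leading genes include Col10a1, Hapln1 and Col2a1 but also Lyz2 and S100a8. A cluster of 830 stromal-like cells, also led by Col10a1, held Tgfb1 at 213, Tgfb2 at 163, Tgfbr1 at 70.8 and Tgfbr2 at 37.0. For both the closest class was chondrocyte, but their cells are not part of the chondrocyte-like classes. A cluster of 494 cells whose leading genes include the leukocyte genes Ptprc, Coro1a and Cybb, left unnamed for lack of 3 listed markers and not counted in the immune-like share, held Tgfb1 at 476, above the mean of each of the 19 fitted classes, with Tgfbr1 at 137 and Tgfbr3 at 72.8. These values are sums over libraries and have no replicate error.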
